A study of Homo sapiens with 6 samples.

Results

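The 29 genes described here encode enzymes and regulators of cholesterol and fatty acid synthesis, and they were taken by gene symbol from a table of 25277 gene rows in RNA-seq libraries of human mantle cell lymphoma lines. All 29 symbols were found, and all 29 were among the 11400 genes whose mean over the 6 libraries reached 1 FPKM and which were tested. FPKM counts a gene's fragments per unit of transcript length and of sequencing depth, so levels of different genes can be set side by side. SC5D and STARD4 passed only through the libraries labelled Rec-1 sgRNA, since their mean over the other 4 libraries was under 1 FPKM.

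Cells make cholesterol from acetyl-CoA through mevalonate, isoprenoid diphosphates and squalene, and make fatty acids from the same precursor. The sterol regulatory element-binding proteins (SREBPs), encoded by SREBF2 and SREBF1, are membrane-bound transcription factors that are released by proteolysis when membrane sterols fall and then activate most of these genes. The SREBF2 product acts mainly on sterol genes and the SREBF1 product mainly on fatty acid genes, while INSIG1 protein holds both back in the endoplasmic reticulum. Dividing B cells need both pathways for new membrane.

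Jeko and Rec-1 were grown from patients with mantle cell lymphoma, a cancer of B cells. Both carried Cas9 and a tet-on vector, and doxycycline was given for 48 h before each of the 6 libraries was made, controls included. Each line gave 1 library with the empty vector (control), 1 labelled NR4A1 sgRNA 1 and 1 labelled NR4A1 sgRNA 2. An sgRNA directs Cas9 to cut its target, here NR4A1, a gene for a nuclear receptor. The labels do not say whether these stable lines are single clones, or whether a guide number stands for the same sequence in both lines. They also do not say that libraries came from separate cultures, so p-values measure the spread between these libraries, which may be technical.

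Library identity bears on every comparison. NR4A1, the targeted gene, was at 5.99 FPKM in the Jeko control and at 3.89 and 4.44 FPKM in the libraries labelled Jeko sgRNA 1 and 2. It was at 11.6 FPKM in the library labelled Rec-1 control and at 27.4 and 12.7 FPKM in those labelled Rec-1 sgRNA 1 and 2, so its level went against the Rec-1 labels. Every direction given here rests on the labels, and a transcript's level cannot show whether it was edited. Pearson's r across the tested genes was 0.941 between the Jeko control and the library labelled Rec-1 control. It was 0.757 and 0.762 between that library and those labelled Rec-1 sgRNA 1 and 2. Against Jeko sgRNA 1 and 2, r was 0.916 and 0.914 for the Jeko control. For the library labelled Rec-1 control it was 0.908 and 0.918. CCND1 (cyclin D1, the defining gene of mantle cell lymphoma) ranged from 442 to 815 FPKM over the 3 Jeko libraries and reached 495 FPKM in the library labelled Rec-1 control. With Rec-1 sgRNA 1 and 2 it was at 0.696 and 0.592 FPKM. SOX11, another marker of this lymphoma, was between 7.11 and 11.1 FPKM in those 4 libraries and at 3.60 and 2.45 FPKM with Rec-1 sgRNA. CD5, a further marker of it, was under 0.1 FPKM in all 6. The 6 B-cell markers summed to between 584 and 1032 FPKM per library. Of 4 T-cell markers, CD3D, CD3E and CD3G were highest in those labelled Rec-1 sgRNA. The sum of the 4 was 102 and 120 FPKM there against 2.11 to 5.44 FPKM elsewhere, and CD2 was at 0.03 FPKM or less in all 6. The part of these marker differences in the results below was not tested. In bulk RNA, fewer cells of a type and less RNA per cell cannot be told apart.

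SREBF2 carries an exact sterol regulatory element, a sequence that SREBPs are known to bind. FADS2, MVD and SC5D had the largest differences between the lines. For these reasons the promoters of these 4 members are shown. Each is the 250 bases before the start of transcription, 5′ to 3′ on the gene's strand, from RefSeq (GRCh38.p14). SREBF2 is at chr22:41832855-41833104 on the plus strand, FADS2 at chr11:61815953-61816202 on the plus strand, MVD at chr16:88663092-88663341 on the minus strand and SC5D at chr11:121292521-121292770 on the plus strand. Capitals mark the sterol regulatory element, found here in the SREBF2 promoter only, and the CCAAT box CCAAT, each searched on both strands, with ATTGG as the reverse of CCAAT.
SREBF2: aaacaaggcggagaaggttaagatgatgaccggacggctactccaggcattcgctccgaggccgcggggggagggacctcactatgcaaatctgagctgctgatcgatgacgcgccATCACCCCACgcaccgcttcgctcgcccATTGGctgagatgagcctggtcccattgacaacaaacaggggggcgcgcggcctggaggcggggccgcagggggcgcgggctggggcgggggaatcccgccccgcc
FADS2: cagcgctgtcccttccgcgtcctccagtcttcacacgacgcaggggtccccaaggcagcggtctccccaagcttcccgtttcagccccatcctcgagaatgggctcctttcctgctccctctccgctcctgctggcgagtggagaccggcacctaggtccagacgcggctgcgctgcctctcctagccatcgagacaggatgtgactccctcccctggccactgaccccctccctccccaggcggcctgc
MVD: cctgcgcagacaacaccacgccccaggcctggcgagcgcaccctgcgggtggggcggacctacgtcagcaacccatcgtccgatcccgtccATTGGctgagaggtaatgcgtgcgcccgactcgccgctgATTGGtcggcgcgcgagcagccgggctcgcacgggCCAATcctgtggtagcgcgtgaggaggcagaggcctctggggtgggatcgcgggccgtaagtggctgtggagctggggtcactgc
SC5D: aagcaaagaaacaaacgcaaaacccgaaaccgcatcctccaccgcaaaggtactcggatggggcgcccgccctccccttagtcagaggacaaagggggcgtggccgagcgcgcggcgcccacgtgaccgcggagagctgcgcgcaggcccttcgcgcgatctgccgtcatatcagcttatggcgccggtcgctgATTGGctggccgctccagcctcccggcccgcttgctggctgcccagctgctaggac
The SREBF2 window held the sterol regulatory element at position -134 from the start of transcription, and a reverse CCAAT box at position -106. MVD held 3 CCAAT boxes, SC5D held 1 and FADS2 held none of either motif. For FADS2 and SC5D the table lists 2 promoters each, and the one listed first is printed.

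Promoter windows were found for 25 of the 29 members, 36 windows in all because some genes have several. The exact sterol regulatory element was in 1 of these 36 windows, that of SREBF2, and in 12 of 35116 windows of all genes (0.0342%). The CCAAT box was in 24 of the 36 windows (66.7%), against 32.0% of all windows. The GC box GGGCGG, searched on both strands, was in 31 (86.1%) against 42.6%, and the E-box CACGTG in 3 (8.33%) against 6.34%. None of these motifs contains another. A match is a description of these letters only.

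Values were compared as log2(FPKM + 1), a scale on which the change of low genes is understated. The lines were first compared through the 4 sgRNA libraries alone, which leaves out both controls. In that comparison 17 of the 29 members were higher and 1 lower with Rec-1 sgRNA than with Jeko sgRNA, as labelled, at a limma adjusted p under 0.05. Over all tested genes 12.8% were called higher and 13.0% lower. The median difference of the 29 members was 1.75 on the log2 scale, against −0.031 over all tested genes. For 21 members the lowest value labelled Rec-1 sgRNA lay above the highest Jeko sgRNA value (32.9% of tested genes), and for 17 by at least 2-fold (8.55%). Here and below, 2-fold means a difference of 1 in log2(FPKM + 1), which for low genes is more than 2-fold in FPKM. The 17 higher members were 4 of 8 genes of the mevalonate steps, 8 of 11 squalene-to-cholesterol genes, the 3 desaturase genes, SREBF2 and STARD4. They include SC5D and STARD4, which passed the filter only through the libraries labelled Rec-1 sgRNA. Among those not called were SREBF1, FASN, ACACA and ACLY.

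**Figure D1:**
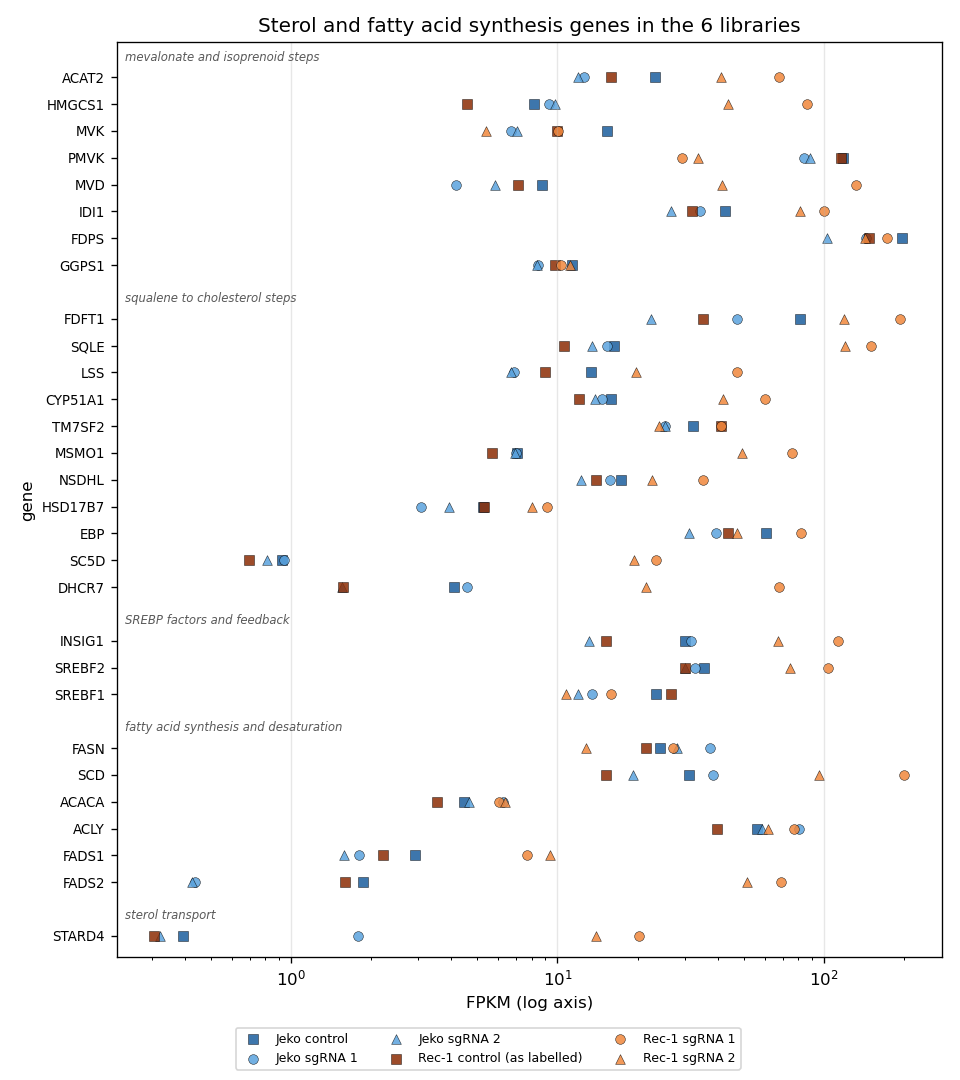
FPKM on a log axis (horizontal) of the 29 genes (vertical, grouped by role) in each of the 6 libraries, with squares for controls, circles for sgRNA 1 and triangles for sgRNA 2, blue for Jeko and orange or brown for Rec-1. The orange points of the libraries labelled Rec-1 sgRNA lie to the right for genes such as SQLE, SC5D and FADS2. For these genes the brown square of the library labelled Rec-1 control lies near the blue Jeko points, below all of them for SQLE and SC5D.

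Of the 8 genes of the mevalonate and isoprenoid steps, 4 were higher and 1 was lower. HMGCS1, the enzyme that makes HMG-CoA, was at 8.20, 9.31 and 9.78 FPKM in the Jeko control, sgRNA 1 and sgRNA 2 libraries, at 4.58 in the library labelled Rec-1 control, and at 86.6 and 43.5 in those labelled Rec-1 sgRNA 1 and 2. Both libraries labelled Rec-1 sgRNA lay above the other 4, and the difference between the sgRNA groups was 2.57 (SE 0.38, limma adjusted p = 0.0179). MVD, the decarboxylase that ends the mevalonate steps, was at 8.75, 4.18 and 5.82 FPKM in Jeko, 7.13 in the library labelled Rec-1 control, and 132 and 41.6 with Rec-1 sgRNA 1 and 2. Its guides stood far apart within Rec-1, and its difference of 3.67 carried the largest SE of the step, 0.61 (limma adjusted p = 0.0241).

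ACAT2, the cytosolic thiolase that opens the pathway, was at 23.2, 12.6 and 12.0 FPKM in Jeko, 15.8 in the library labelled Rec-1 control and 67.5 and 41.2 in those labelled Rec-1 sgRNA. Its difference was 2.02 (SE 0.29, limma adjusted p = 0.0178). IDI1, which interconverts the isoprenoid building blocks, was at 42.6, 34.4 and 26.6 FPKM in Jeko, 31.9 in the library labelled Rec-1 control and 100.4 and 81.3 in those labelled Rec-1 sgRNA, a difference of 1.55 (SE 0.23, limma adjusted p = 0.0188). For both genes the Rec-1 sgRNA values lay above all other libraries.

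PMVK, the second kinase of the pathway, was the member that went the other way. It was at 118, 83.9 and 88.6 FPKM in Jeko and at 116 in the library labelled Rec-1 control, but at 29.2 and 33.8 in those labelled Rec-1 sgRNA 1 and 2. Its difference was −1.43 (SE 0.18, limma adjusted p = 0.0132), with no overlap between the sgRNA groups. MVK, the kinase before it, differed by 0.090 (SE 0.31, limma adjusted p = 0.851). FDPS, which makes farnesyl diphosphate, was the most abundant of the 8 per length, between 103 and 196 FPKM over the 6 libraries, and differed by 0.36 (limma adjusted p = 0.338). GGPS1, which makes geranylgeranyl diphosphate for protein prenylation, was between 8.38 and 11.3 FPKM and differed by 0.31 (limma adjusted p = 0.208).

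Among the 11 genes that take farnesyl diphosphate through squalene to cholesterol, 8 were higher and none lower, and the median difference was 2.02. SQLE, the epoxidase that commits squalene to sterols, was at 16.3, 15.4 and 13.5 FPKM in Jeko, 10.6 in the library labelled Rec-1 control, and 151 and 120 in those labelled Rec-1 sgRNA. The lowest Rec-1 sgRNA value was 7.81 times the highest Jeko sgRNA value. Its difference was 3.14 (SE 0.21, limma adjusted p = 0.0029). SC5D, a sterol desaturase of the last steps (GRCh37 chromosome 11, 121163390 to 121184119), was near the floor of the table outside Rec-1 sgRNA, at 0.923, 0.940 and 0.816 FPKM in Jeko and 0.698 in the library labelled Rec-1 control. It was at 23.4 and 19.3 FPKM with Rec-1 sgRNA 1 and 2, a difference of 3.57 (SE 0.17, limma adjusted p = 0.00159).

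MSMO1, an oxidase that removes sterol methyl groups (GRCh37 chromosome 4, 166248819 to 166264316), had nearly equal values in 4 libraries, 7.07, 6.96 and 6.91 FPKM in Jeko and 5.67 in the library labelled Rec-1 control. With Rec-1 sgRNA it was at 75.9 and 49.4 FPKM, a difference of 2.97 (SE 0.26, limma adjusted p = 0.00548). DHCR7, the reductase that yields cholesterol in the last step, varied between guides in both lines. It was at 4.09, 4.57 and 1.55 FPKM in Jeko, 1.57 in the library labelled Rec-1 control, and 68.0 and 21.6 in those labelled Rec-1 sgRNA. Its difference of 3.39 had the largest SE of the 29, 0.70 (limma adjusted p = 0.0382).

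FDFT1 (squalene synthase), LSS (lanosterol synthase), CYP51A1 (lanosterol demethylase) and HSD17B7 (a sterol ketoreductase) were also higher, with differences of 2.18, 2.02, 1.75 and 1.09 and limma adjusted p of 0.0405, 0.0451, 0.0160 and 0.0241. Within Jeko, FDFT1 was at 81.6 FPKM in the control against 47.1 and 22.4 with sgRNA 1 and 2. HSD17B7 stayed between 3.07 and 9.12 FPKM in all 6 libraries. The dehydrogenase gene NSDHL and the isomerase gene EBP had differences of 0.97 and 0.81 that were not called (limma adjusted p = 0.0817 and 0.154), though for both the sgRNA groups did not overlap. With values adjusted for transcript length NSDHL was called (limma adjusted p = 0.0265). TM7SF2, a sterol reductase, was between 24.0 and 41.0 FPKM over the 6 libraries, and its sgRNA groups overlapped (difference 0.30, limma adjusted p = 0.503).

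The 2 SREBP genes did not go together. SREBF2 was at 35.4, 32.9 and 30.2 FPKM in Jeko, 30.0 in the library labelled Rec-1 control and 104 and 74.6 in those labelled Rec-1 sgRNA, a difference of 1.45 (SE 0.24, limma adjusted p = 0.0228). SREBF1 was at 23.5, 13.5 and 11.9 FPKM in Jeko, 26.7 in the library labelled Rec-1 control and 15.8 and 10.8 in those labelled Rec-1 sgRNA. Both control libraries were above all 4 sgRNA libraries for SREBF1, and the sgRNA groups of the 2 lines overlapped (difference 0.041, SE 0.25, limma adjusted p = 0.917). INSIG1, itself a sterol-controlled gene, was at 30.1, 31.8 and 13.2 FPKM in Jeko, 15.2 in the library labelled Rec-1 control and 113 and 67.3 in those labelled Rec-1 sgRNA. The groups did not overlap, but the spread between guides was wide and the difference of 2.03 was not called (SE 0.52, limma adjusted p = 0.0587). With values adjusted for transcript length it was called (limma adjusted p = 0.0107).

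Among the 6 fatty acid genes, the 3 desaturases were higher and the 3 enzymes that build the chain were not called. FADS2, which starts the desaturation of polyunsaturated fatty acids (GRCh37 chromosome 11, 61560452 to 61634826), had the largest difference of the 29. It was at 1.86 FPKM in the Jeko control, 0.436 and 0.424 with the Jeko guides, and 1.60 in the library labelled Rec-1 control. In those labelled Rec-1 sgRNA 1 and 2 it was at 68.9 and 51.6 FPKM, and the ratio of group mean FPKM was 140 (log2 difference 5.41, SE 0.20, limma adjusted p = 0.00139). FADS1, the next desaturase on the same locus (61567099 to 61596790, opposite strand), was at 2.92, 1.81 and 1.58 FPKM in Jeko, 2.22 in the library labelled Rec-1 control and 7.67 and 9.35 with Rec-1 sgRNA. Its difference was 1.82 (SE 0.17, limma adjusted p = 0.00628). SCD, the stearoyl-CoA desaturase, was at 31.3, 38.4 and 19.1 FPKM in Jeko, 15.3 in the library labelled Rec-1 control and 201 and 95.7 with Rec-1 sgRNA (difference 2.31, SE 0.53, limma adjusted p = 0.0467).

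FASN, the fatty acid synthase, was at 24.2, 37.4 and 28.2 FPKM in Jeko, 21.6 in the library labelled Rec-1 control and 27.1 and 12.8 with Rec-1 sgRNA. Both Jeko sgRNA values lay above both Rec-1 sgRNA values, and the difference of −0.76 was not called (SE 0.41, limma adjusted p = 0.239). ACACA, which makes malonyl-CoA, and ACLY, which makes cytosolic acetyl-CoA, differed by 0.17 and 0.0089 (limma adjusted p = 0.549 and 0.986). ACLY was between 39.7 and 80.5 FPKM in the 6 libraries and ACACA between 3.53 and 6.37. STARD4, a carrier of cholesterol between membranes, was at 0.394, 1.78 and 0.323 FPKM in Jeko, 0.307 in the library labelled Rec-1 control and 20.1 and 13.98 with Rec-1 sgRNA (difference 3.21, SE 0.43, limma adjusted p = 0.0151).

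**Figure D2:**
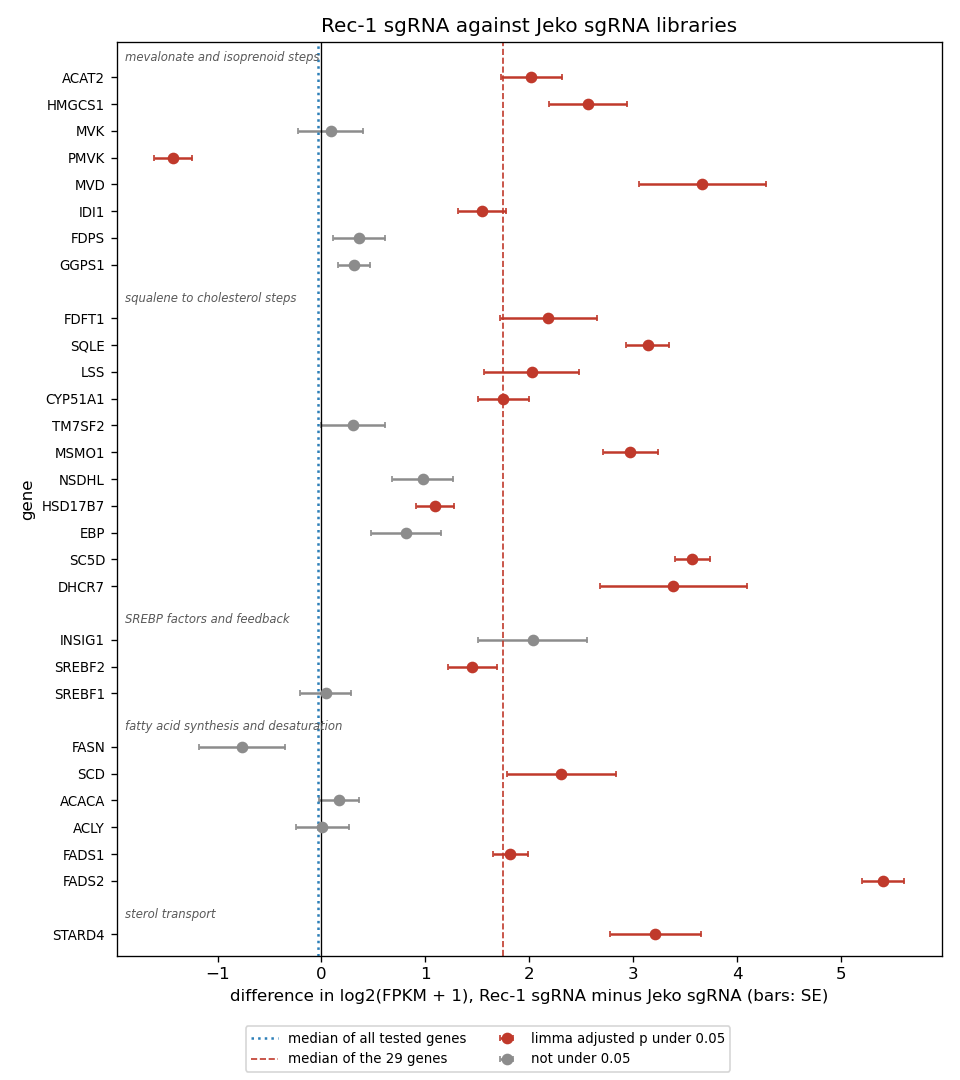
Difference in log2(FPKM + 1) between the libraries labelled Rec-1 sgRNA and Jeko sgRNA (horizontal, 2 libraries against 2, 1 per guide) for the 29 genes (vertical, grouped by role). Bars give the SE, which includes differences between guides, and red marks a limma adjusted p under 0.05. The red points lie right of 0 for 17 genes and left of it for PMVK, and the dashed line at the median of the 29 genes, 1.75, stands apart from the dotted line for all tested genes.

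With 2 libraries on each side, these calls depended on each library. Without Jeko sgRNA 1 or 2, 4 and 3 members were called in place of 18, and without Rec-1 sgRNA 1 or 2, 5 and 9 were. The calls over all genes went from 2947 to 946, 942, 803 and 859. The differences of SQLE, SC5D and FADS2 were at least 2.98, 3.44 and 5.2 in each of the 14 fits that were run. The fits without a control leave these differences unchanged. SC5D and STARD4 were tested only because of their values labelled Rec-1 sgRNA, so their calls in this contrast add no separate support. The same holds for their calls in the limma fit against the library labelled Rec-1 control. The exons of 17 members overlap those of another annotated gene (9 of them a protein-coding one), among them ACAT2 with TCP1, CYP51A1 with AKAP9 and FADS1 with FADS2. Whether counting used strand is not given in the sources used here, so values of such genes are uncertain. Some overlaps are on the same strand, among them FADS2 with FEN1 and TM7SF2 with VPS51, and strand does not separate those. CYP51A1, FDPS, IDI1, HSD17B7 and SCD have annotated pseudogenes, and their values are uncertain for that reason as well.

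Within Jeko, each sgRNA library was set against the Jeko control. In both sgRNA libraries 20 of the 29 members were below the control (36.4% of all tested genes were) and 4 above it (36.9%). The median difference was −0.30 for sgRNA 1 and −0.46 for sgRNA 2, against 0.000368 and 0 over all tested genes. None of the 29 passed the limma test of the mean of both guides against the control, in which the lone control is assumed to vary like the guides, against 0.439% of all tested genes, and 2 (SREBF1 and FADS2) had an unadjusted p under 0.05. In that fit 11.3% of all tested genes had such a p.

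MVK was the member at least 2-fold below the Jeko control with both guides, at 6.69 and 7.07 FPKM against 15.3 (1.15% of all tested genes were so). FADS2 was just inside that limit with sgRNA 2 and just outside it with sgRNA 1, with differences of −1.01 and −0.99 in log2(FPKM + 1). In FPKM itself FADS2 was lower with both guides by more than MVK was, at 0.436 and 0.424 against 1.86, a ratio of means of 0.231. For sgRNA 2 alone FDFT1 and INSIG1 were also at least 2-fold lower, with differences of −1.82 and −1.13, where 3.18% of tested genes were. For sgRNA 1 the same was seen at MVK only, where 2.79% of tested genes were. FASN, ACACA, ACLY and HMGCS1 were the 4 above the control with both guides, with differences between 0.049 and 0.61. STARD4 had a difference of 0.9985 with sgRNA 1 and of −0.075 with sgRNA 2. Differences from the Jeko control moved with transcript length over all tested genes, from a median of −0.31 and −0.35 (sgRNA 1 and 2) in the shortest of 5 equal groups to 0.36 and 0.36 in the longest. The median annotated transcript was 2908 nt for the members and 3192 nt for the tested genes with a length, and with values adjusted for length the members' median in Jeko was −0.26 in place of −0.43.

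Within Rec-1, the libraries labelled sgRNA were set against the library labelled control. With both guides 23 members were higher to any extent (41.8% of tested genes were). Of the 29, 17 were at least 2-fold higher and 1, PMVK, at least 2-fold lower, against 11.9% and 11.4% of all tested genes. The members' median difference was 1.76 for sgRNA 1 and 1.32 for sgRNA 2, against −0.018 and 0 over all tested genes. In the limma fit 12 of the 29 were higher and 1 was lower, against 10.0% and 9.11% of tested genes. In place of these 13, 4 were called without Jeko sgRNA 1, 4 without Jeko sgRNA 2, 5 without Rec-1 sgRNA 1 and 6 without Rec-1 sgRNA 2. The calls over all genes also fell without any 1 of these libraries. With no filter on low values 8 members were called, among 2313 of 18470 genes. With values adjusted for transcript length 21 were, among 2672 of 10020 genes. The main fit called 2184 of 11400 genes. Differences moved with transcript length over all tested genes here too. Their medians were −0.21 and −0.23 (sgRNA 1 and 2) in the shortest of 5 equal groups and 0.15 and 0.21 in the longest. For 26 of the 29 members the library labelled Rec-1 control was nearer to the Jeko control than to the mean of the libraries labelled Rec-1 sgRNA, as it was for 81.8% of all tested genes, so an effect of the sgRNA and a difference between cells cannot be told apart here.

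**Figure D3:**
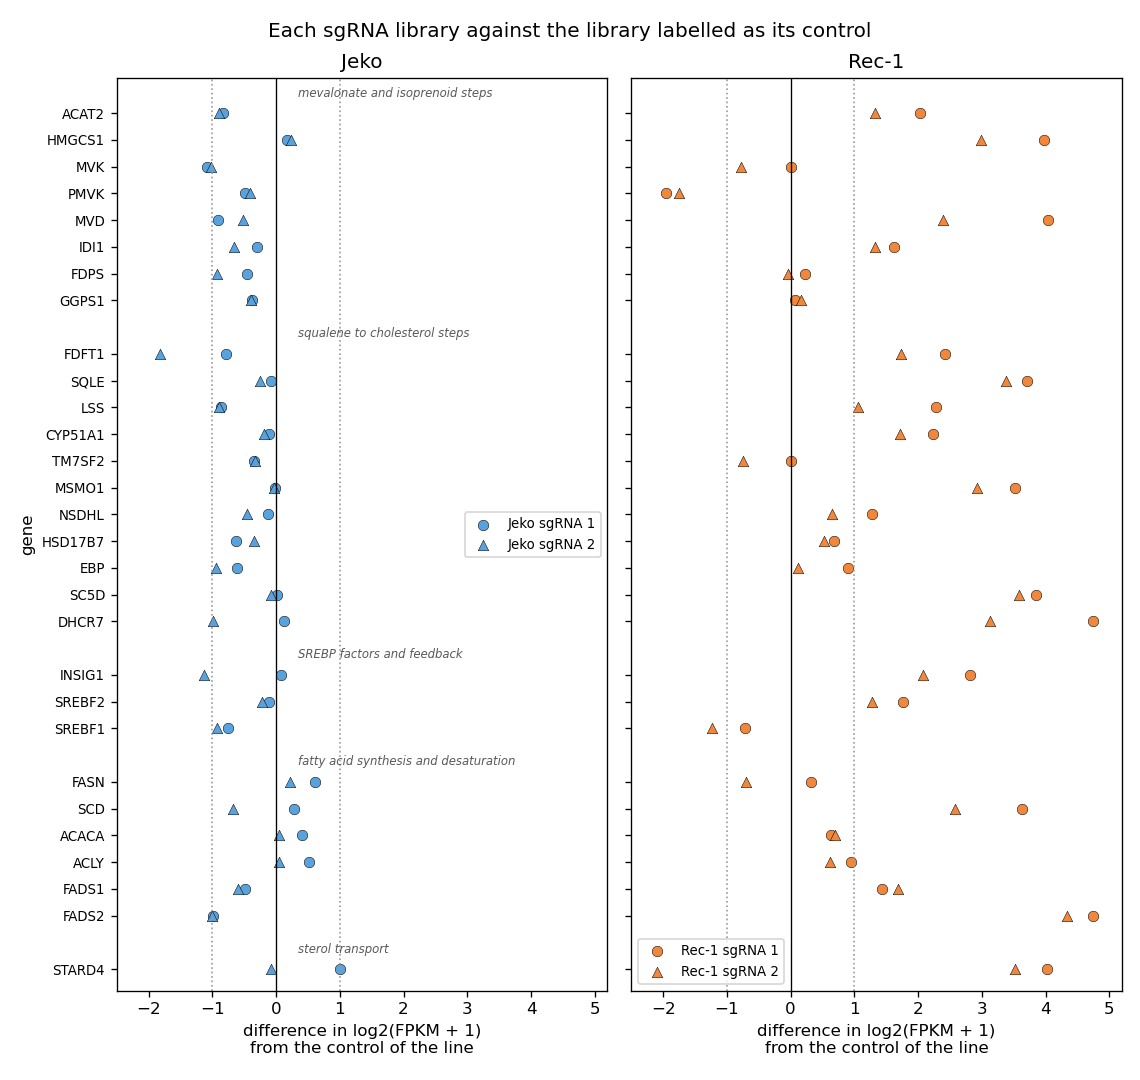
Difference in log2(FPKM + 1) of each sgRNA library from the library labelled as the control of its line (horizontal) for the 29 genes (vertical, grouped by role), Jeko on the left and Rec-1 on the right, with circles for sgRNA 1, triangles for sgRNA 2 and dotted lines at a 2-fold difference. Most Jeko points lie left of 0 within the dotted lines, and in Rec-1 17 genes have both points beyond the right dotted line.

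FADS2 was higher by 4.75 and 4.34 with Rec-1 sgRNA 1 and 2 than in the library labelled Rec-1 control, SC5D by 3.84 and 3.58, SQLE by 3.71 and 3.38, and STARD4 by 4.02 and 3.52. DHCR7 was higher by 4.75 and 3.14, values that differ more between guides. PMVK was lower, with differences of −1.95 and −1.75 (limma log2 difference −1.85, SE 0.22, adjusted p = 0.0146). SREBF1 was below the control of its line in all 4 sgRNA libraries, with differences of −0.76 and −0.93 for the Jeko guides and −0.72 and −1.23 for the Rec-1 guides. It was not called over both lines (limma log2 difference −0.91, SE 0.22, adjusted p = 0.174). GGPS1 was above the library labelled Rec-1 control by 0.065 and 0.16.

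The library labelled Rec-1 control was below the Jeko control for 26 of the 29 members, where 52.0% of all tested genes were lower. The differences were small, with a median of −0.29, and FDFT1 was the member beyond 2-fold, with 35.1 against 81.6 FPKM (0.833% of tested genes were lower by as much). Those just outside 2-fold were SCD, DHCR7 and INSIG1, with differences of −0.9895, −0.99 and −0.94 in log2(FPKM + 1). As ratios of FPKM these were 0.488, 0.384 and 0.505, so SCD and DHCR7 were beyond 2-fold in FPKM. TM7SF2, SREBF1 and HSD17B7 were the 3 above the Jeko control, with TM7SF2 and SREBF1 higher by 0.34 and 0.17 and HSD17B7 at 5.29 against 5.26 FPKM. Each of these is a comparison of 1 library with 1 library, with no replicate.

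Over both lines, with the cell line as a covariate, 0 of the 29 members passed the limma test of sgRNA against control, where 0.246% of all tested genes did. An unadjusted p under 0.05 was found for 3 members, PMVK, SREBF1 and STARD4, or 10.3% of the members, against 21.1% of all tested genes. The direction was mixed by line, since 15 members were lower than the control in both Jeko sgRNA libraries and higher in both libraries labelled Rec-1 sgRNA. Over all tested genes 9.90% were so. HMGCS1, ACACA and ACLY were higher in all 4 comparisons, and PMVK, SREBF1 and the reductase gene TM7SF2 were lower in all 4. The share of all tested genes with the same direction in all 4 was not counted, so these names are a description only. For TM7SF2 the difference with Rec-1 sgRNA 1 was −0.0012. Without the library labelled Rec-1 control, the median of the 29 members in this fit went from 0.50 to −0.43, since the contrast then rests on Jeko alone.

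The interaction of line and sgRNA was called at 5 members, each with a higher difference in Rec-1, against 3.68% of all tested genes in that direction. These were FADS2 (5.54, SE 0.35, limma adjusted p = 0.00828), SC5D (3.75, SE 0.29), SQLE (3.71, SE 0.36), MSMO1 (3.25, SE 0.46) and FADS1 (2.10, SE 0.29), the last 4 with limma adjusted p between 0.0105 and 0.0349. Leaving out Jeko sgRNA 1 or Jeko sgRNA 2 left 0 of the 5, and leaving out Rec-1 sgRNA 1 or Rec-1 sgRNA 2 left 2, FADS2 and SC5D. With values adjusted for transcript length 16 members passed, among 1015 of 10020 genes. This contrast rests on the library labelled Rec-1 control. SC5D passed the filter only through the libraries labelled Rec-1 sgRNA, so its call here adds no separate support.

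Guides were compared within each line. In Rec-1, 25 of the 29 members were lower with sgRNA 2 than with sgRNA 1, where 45.0% of all tested genes were. The median difference was −0.52, against 0.028 over all tested genes. In Jeko 23 of the 29 were lower with sgRNA 2, against 52.3% of tested genes, and the median was −0.12 against −0.020. DHCR7 was lower with sgRNA 2 by more than 2-fold in both lines, at 1.55 against 4.57 FPKM in Jeko and 21.6 against 68.0 FPKM in Rec-1. INSIG1, STARD4 and FDFT1 were the other members beyond 2-fold in Jeko, and MVD, LSS, SCD and FASN those in Rec-1, where 1.79% and 2.07% of tested genes were lower by as much.

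**Figure D4:**
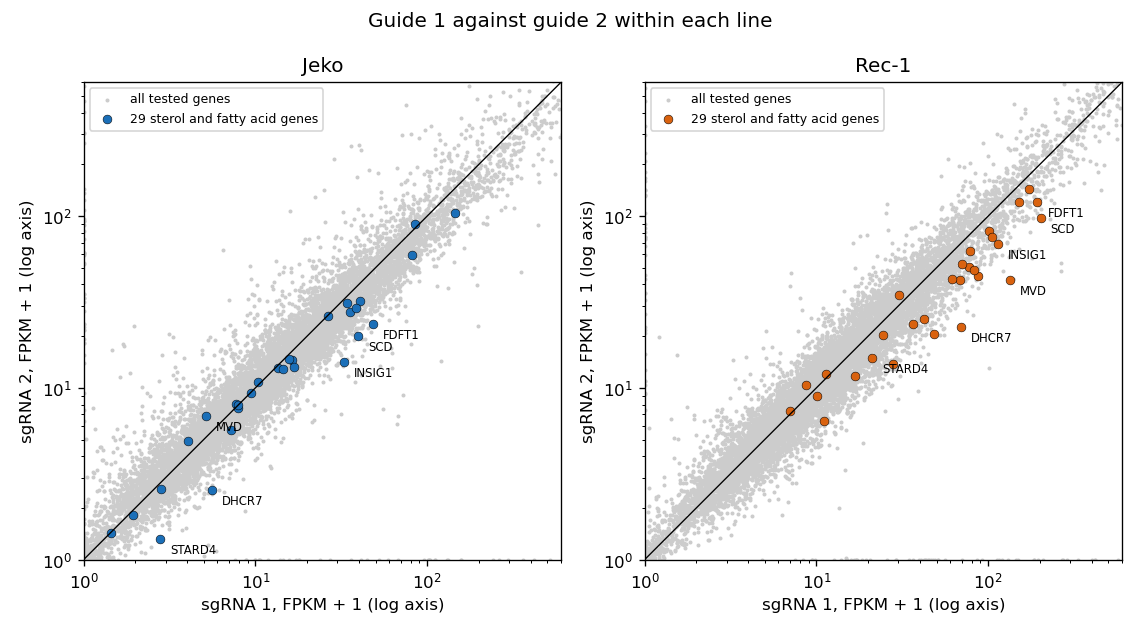
FPKM + 1 with sgRNA 1 (horizontal) against sgRNA 2 (vertical), both on log axes, in Jeko (left) and Rec-1 (right), with grey points for the tested genes within the axes and coloured points for the 29 genes. In Rec-1 25 coloured points lie below the diagonal, and DHCR7 lies below it in both lines.

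In the fit over both lines 0 members and 0 genes passed the limma test of guide 2 against guide 1, while 5 members (DHCR7, SCD, INSIG1, FDFT1 and STARD4), or 17.2%, and 5.75% of all tested genes had an unadjusted p under 0.05. The median difference of the 29 was −0.37, against 0.000396 over all tested genes. This fit takes a guide number to mean the same guide in both lines, which the labels do not say. For DHCR7 the difference was −1.37 and for SCD −1.01. With values adjusted for transcript length both passed (−1.39 and −1.03, limma adjusted p = 0.00183 and 0.0241), among 121 genes in all.

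Of 29 further tested genes of SREBP processing, sterol handling and acyl chain supply, 8 were higher and 2 lower with Rec-1 sgRNA than with Jeko sgRNA, as labelled, where 12.8% and 13.0% of all tested genes were. Their median difference was 0.19, against −0.031 over all tested genes. Among the 4 genes of SREBP processing, INSIG2 was higher, at 13.8 and 14.8 FPKM against 6.05 and 6.19 (difference 1.10, limma adjusted p = 0.0162), and SCAP, MBTPS1 and MBTPS2 were not called. ACSS2, which makes acetyl-CoA from acetate, was at 16.3 and 7.26 FPKM against 1.30 and 0.912 with the Jeko guides (difference 2.51, limma adjusted p = 0.0227). SLC25A1, the mitochondrial citrate carrier, was at 93.7 and 66.6 FPKM against 13.7 and 15.6 (difference 2.36, limma adjusted p = 0.00809). C14orf1, the older symbol of a sterol scaffold gene, differed by 2.22 and NPC2, a lysosomal cholesterol carrier, by 1.91 (limma adjusted p = 0.00885 and 0.0213). The elongase gene ELOVL6 and the desaturase-like gene FADS3 differed by 1.65 and 1.54 (limma adjusted p = 0.0347 and 0.0103). SCD5, a second stearoyl-CoA desaturase gene, was lower, with a difference of −0.84 (limma adjusted p = 0.0478).

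Of 6 genes of the oxysterol receptors LXR and of sterol export or storage, 1 was lower and 1 was higher. ABCA1, a cholesterol exporter induced by LXR, was at 0.640 and 0.716 FPKM with Rec-1 sgRNA, 2.12 and 3.58 with the Jeko guides, 1.37 in the Jeko control and 5.32 in the library labelled Rec-1 control (difference −1.17, limma adjusted p = 0.0350). NR1H3, which encodes one of the LXR proteins, was higher at 2.89 and 2.56 FPKM against 0.731 and 0.456 (difference 1.23, limma adjusted p = 0.0140). ABCG1, a further sterol exporter, was at 2.86 and 6.75 FPKM against 7.85 and 10.3 and was not called (difference −0.87, limma adjusted p = 0.182). MYLIP, SOAT1 and NR1H2 were not called either.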

How the data were processed

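RNA was extracted for 6 samples, and libraries were made with an Illumina TruSeq kit, per the labels' protocols. The authors deposited FPKM values in 1 table, per the file headers, and TopHat and build hg19 are named in the submitters' processing notes. The program that computed FPKM, the annotation and the use of strand are not given in the sources used here. All 6 columns were matched to samples by line and guide number. Low values show the relative worth of 1 fragment in 5 of the 6 libraries, while in that labelled Rec-1 sgRNA 1 the commonest ratio was shared by 1.25% of 562 genes. The number of fragments per library is unknown, and no counting intervals are given.

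Values were analysed as log2(FPKM + 1) for the 11400 genes averaging 1 FPKM or more. Tests were two-sided and used limma 3.58.1 (R 4.3.3) with a mean-variance trend in its moderated variances, on all 6 libraries, with line as covariate for the sgRNA effect over both lines and with means of the 4 groups for the other contrasts. The guide contrast used the 4 sgRNA libraries. Benjamini-Hochberg adjustment ran over all tested genes, and adjusted p under 0.05 counted as called. The fits were tested on simulated data. Each guide against a control is 1 library against 1 and is given with a 2-fold threshold and no p. Python 3.11.15 was used for the rest, with gene positions from GENCODE 44 on GRCh37. All 29 members are named, with the 8 related genes of largest difference between the lines. INSIG2 and SCD5, the other called genes of those lists, were named after its values were seen. The members, the related lists and the tests were chosen with earlier results of these data known. Alternatives were another pseudocount, other filters, upper-quartile scaling, adjustment for transcript length, no trend, a replicate block and leaving out each library.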

Additional observations from a re-analysis of the deposited data

Results flagged for a closer look

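The sgRNA difference from control differed between the lines, by the limma test of the interaction, at 791 genes and at 5 of the 29 members. FADS1 (2.10), FADS2 (5.54), MSMO1 (3.25), SC5D (3.75) and SQLE (3.71) each had a higher difference in Rec-1 than in Jeko on the log2 scale. For each of these 5 the library labelled Rec-1 control was nearer to the Jeko control than to those labelled Rec-1 sgRNA. The contrast rests on these 2 single controls. SC5D was tested only because of its values labelled Rec-1 sgRNA, so its call adds no separate support.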

How the results depend on the processing

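The count of members called between the lines was 18 and ranged from 13 to 20 over the settings that kept all 6 libraries. Leaving out 1 library gave 3 to 18 members and 803 to 2940 genes there, 4 to 13 members and 657 to 2180 genes for sgRNA in Rec-1, 0 to 2 members and 75 to 454 genes for the interaction, and 0 to 13 members and 11 to 2180 genes over both lines. Over both lines the highest of these counts came without the Jeko control, where that fit rests on Rec-1 alone. A minimum mean of 5 FPKM gave 1549 genes between the lines, 1083 in Rec-1, 318 for the interaction and 8 for guide 2 against guide 1. No filter gave 12 genes over both lines, 8 members in Rec-1 and 3 members for the interaction. Adjustment for transcript length gave 0 genes over both lines, 4 in Jeko, 121 with 2 members for the guides, 21 members in Rec-1 and 16 for the interaction. The replicate block on the guide number gave 9 genes over both lines and 428 for the interaction, and 20, 16 and 6 members between the lines, in Rec-1 and for the interaction. Under the block NSDHL and INSIG1 were gained between the lines (limma adjusted p = 0.0481 and 0.0185), and for the interaction DHCR7, FDFT1 and SCD were gained and MSMO1 and FADS1 lost. Across the 11400 tested genes, the difference of sgRNA 2 from sgRNA 1 had a correlation of 0.0998 between the lines. The numbers were therefore not taken to pair the libraries, except in the guide contrast and the replicate block. Most members did differ the same way, with 25 lower with sgRNA 2 in Rec-1 and 23 in Jeko.

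A 1.5-fold threshold gave 1322 genes higher and 1230 lower in Jeko sgRNA 1, 1527 and 1412 in Jeko sgRNA 2, 2918 and 3022 in Rec-1 sgRNA 1, and 2868 and 2822 in Rec-1 sgRNA 2. A pseudocount of 0.1 gave 631 lower in Jeko sgRNA 1 and 762 higher and 594 lower in Jeko sgRNA 2. Between the lines ACLY turned to -0.00394 with upper-quartile scaling. Over both lines with length adjustment FDPS turned to 0.122, TM7SF2 to 0.119, EBP to 0.267 and FASN to -0.189. Without 1 library, the log2 difference between the lines changed sign for 5 members, with ranges of MVK -0.303 to 0.483, TM7SF2 -0.073 to 0.674, SREBF1 -0.216 to 0.299, ACACA -0.0108 to 0.344 and ACLY -0.219 to 0.237. Over both lines it did so for 21, with ranges of ACAT2 -0.865 to 1.68, MVD -0.714 to 3.21, IDI1 -0.481 to 1.47, FDPS -0.688 to 0.0858, GGPS1 -0.385 to 0.113, FDFT1 -1.3 to 2.08, SQLE -0.165 to 3.55, LSS -0.881 to 1.66, CYP51A1 -0.152 to 1.97, MSMO1 -0.0237 to 3.22, NSDHL -0.294 to 0.967, HSD17B7 -0.485 to 0.601, EBP -0.773 to 0.506, SC5D -0.0349 to 3.71, DHCR7 -0.432 to 3.94, INSIG1 -0.528 to 2.44, SREBF2 -0.163 to 1.52, FASN -0.194 to 0.411, SCD -0.197 to 3.1, FADS1 -0.541 to 1.56 and FADS2 -1 to 4.55. Both ends of each of these 21 ranges came from the fits without a control. Without the control of a line, the contrast over both lines rests on the other line alone. The causes of the other changes were not tested. Fits without the control of a line could not be made for that line's sgRNA effect or the interaction, and the guide contrast has no residual degrees of freedom without 1 sgRNA library. Depth per library is unknown, which limits values under 1 FPKM.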
